A study of Mus musculus with 18 samples.

Results

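Mitochondrial tRNA 5′ fragments other than those of the serine tRNAs were examined in mouse lung, as the authors' tsRNA tables list them. A tsRNA is a small RNA cut from a tRNA. Fragments of the types tRF-5b, tRF-5c and tiRNA-5 were taken when their identifier placed them on the mitochondrial chromosome in a tRNA other than serine, which gave 13 of 193 listed tsRNAs. They came from 6 parent tRNAs: 5 from Met, 4 from Ile and 1 each from Gln, Cys, Pro and Val. The types are the authors': tRF-5b and tRF-5c are 5′ fragments of different lengths, and a tiRNA-5 is a 5′ piece that ends in the anticodon loop.

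Lung tsRNA was sequenced in 3 groups of 3 libraries. The VC group was a chronic obstructive pulmonary disease (COPD) model given 4000000 BMSCs, called mesenchymal stem cells in the series title, through the tail vein in 100 µl of saline. The COPD group was the same model given phosphate-buffered saline alone. The model was made with cigarette smoke and intraperitoneal cigarette smoke extract. The control group received saline. Strain, age, sex and genotype are not given in the sources used. Whether the libraries come from separate mice is not stated, so a p-value here measures the spread among libraries, which may be technical. In bulk tissue, fewer cells of a type and less RNA per cell cannot be told apart. The study asked how the stem cells alter tsRNA and mRNA in the model.

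Mitochondria carry their own compact genome, in which tRNA genes lie between the protein and ribosomal RNA genes. Both strands are transcribed as long precursors, and the tRNAs are cut out of them by the mitochondrial RNase P at the 5′ end and by ELAC2 at the 3′ end, after which CCA is added. Cleavage of a mature tRNA at or near its anticodon gives 5′ fragments that begin at the first base of the tRNA. Ile and Met are read from genes on one strand, with the Gln gene between them on the other.

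The members begin alike and differ in their parent and in where they end, so the most abundant fragment of each parent is shown here, with capitals for the anticodon bases it holds. Lower case marks all other bases.
Met 31 nt (tiRNA-5): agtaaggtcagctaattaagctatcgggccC
Ile 32 nt (tRF-5c): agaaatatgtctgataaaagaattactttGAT
Gln 22 nt (tRF-5b): taggataaggtgtttaggtagc
Cys 30 nt (tRF-5c): ggtcttaaggtgatattcatgtcgaattGC
Pro 31 nt (tiRNA-5): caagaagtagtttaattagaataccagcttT
Val 33 nt (tiRNA-5): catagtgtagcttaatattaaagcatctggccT

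The next abundant Met and Ile fragments differ from these only at the 3′ end.
Met 30 nt (tRF-5c): agtaaggtcagctaattaagctatcgggcc
Met 29 nt (tRF-5c): agtaaggtcagctaattaagctatcgggc
Ile 31 nt (tRF-5c): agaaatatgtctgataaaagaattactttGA

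The parent tRNAs that hold most members, and the Gln tRNA, are given with the whole anticodon in capitals and the added CCA at the 3′ end, as the authors' table has them.
tRNA-Met: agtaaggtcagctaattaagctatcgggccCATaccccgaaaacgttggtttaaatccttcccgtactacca
tRNA-Ile: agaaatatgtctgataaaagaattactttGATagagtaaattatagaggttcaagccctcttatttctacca
tRNA-Gln: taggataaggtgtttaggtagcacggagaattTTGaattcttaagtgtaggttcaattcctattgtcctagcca

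Every member began at base 1 of its tRNA, as a 5′ fragment does, and each aligned to 1 tRNA. They were 22 to 33 nt long. At the 3′ end, 6 stopped before the anticodon and 7 within it. All 3 members of type tiRNA-5 (Met, Pro and Val) stopped after the first anticodon base. The 32-nt Ile fragment held the whole GAT anticodon, at bases 30 to 32, and the 30-nt Cys fragment held 2 bases of GCA. The 22-nt Gln fragment stopped 10 bases short of its TTG anticodon. The 4 Ile fragments were nested in each other, as were the 5 Met fragments. GC content ran from 20.69% in the 29-nt Ile fragment to 48.39% in the 31-nt Met tiRNA.

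In the RefSeq annotation of GRCm38.p6, the build also called mm10, the parent genes lie on the mitochondrial chromosome MT. TrnI spans MT:3706-3774, TrnQ MT:3772-3842 and TrnM MT:3845-3913, a stretch of 208 bases that gave 10 of the 13 members. TrnV spans MT:1025-1093, TrnC MT:5192-5257 and TrnP MT:15356-15422. The tRNA without its CCA had the length of the annotated gene in all 6. Of 22 mitochondrial tRNA genes in that annotation, 14 had any listed tsRNA, with 46 listed mitochondrial tsRNAs in all.

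The libraries held 440448 to 1742029 listed tsRNA counts. A count of 0 allows up to 3 counts, or 1.12 to 3.36 CPM, a limit that covers counting error alone because the sources name no molecular identifiers. In each group 1 library stood apart: VC library 2, COPD library 3 and control library 2 had the fewest listed counts of their groups (480002, 440448 and 618572). In these 3 libraries the listed tsRNAs made up 44.8%, 49.3% and 42.6% of the library totals implied by counts and CPM. They also held the highest share of mitochondrial serine tRNA 5′ fragments in their groups, at 21.5%, 10.2% and 17.8% of listed counts.

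The 13 members together were a small share of lung tsRNA. They held 0.391%, 1.56% and 0.232% of listed counts in the VC libraries, 0.266%, 0.274% and 0.685% in the COPD libraries and 0.313%, 0.837% and 0.305% in the control libraries. The groups overlapped, and the highest value in each group was that of the library that stood apart. The mean shares were 0.726 ± 0.723% in VC, 0.408 ± 0.239% in COPD and 0.485 ± 0.305% in control libraries (SD, n = 3 each). In the other 6 libraries the share lay between 0.232% and 0.391%. Within all mitochondrial tsRNA counts, the members held 4.40% to 6.62% over the 9 libraries.

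Fragments of Met and Ile tRNAs made up 91.6% to 95.3% of the member counts in every library. Met fragments held 65.2 ± 6.97% in VC, 68.6 ± 5.30% in COPD and 67.0 ± 2.16% in control libraries (SD, n = 3 each). Ile fragments held 28.9 ± 8.02% in VC, 25.9 ± 4.54% in COPD and 25.4 ± 2.14% in control libraries. The 22-nt Gln fragment held 3.04 ± 0.214% in VC, 2.54 ± 1.11% in COPD and 4.86 ± 0.580% in control libraries. Cys held 1.82% to 2.19% as group means, and Pro and Val each less.

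The listing itself bears on the least abundant members. Every listed tsRNA reached at least 20 CPM in some library. Of the members, 6 reached 20 CPM in all 9 libraries and 3 in a single library. Those 3 were the Pro tiRNA and the 28-nt Met fragment, in VC library 2, and the Val tiRNA, in COPD library 3. Both of these libraries are among the 3 that stood apart. The lowest counts of these 3 members were 3, 5 and 10, so their levels rest on few reads. The 24-nt Ile and 32-nt Met fragments also reached 20 CPM only in the 3 libraries that stood apart. The 29-nt Ile fragment did so only in VC library 2 and control library 2.

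Where levels are compared below, they are normalised CPM, which is CPM over the listed tsRNA counts scaled by TMM factors. Tests are edgeR's quasi-likelihood test over all tsRNAs, with Benjamini-Hochberg adjusted p under 0.05 as a call. All 13 members were among the 191 tsRNAs that passed the filter on low counts. In simulated data made from these libraries for COPD against control, edgeR recovered 0.667% of tsRNAs changed 2-fold, 45.7% of those changed 4-fold and 93.7% of those changed 8-fold. Many tsRNAs were changed at once there, up and down and in COPD libraries only, with a common spread for all tsRNAs.

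The Met fragments form a ladder around the start of the CAT anticodon. The 31-nt tiRNA stood at 1211, 3305 and 871.8 normalised CPM in VC, 987.1, 834.1 and 1987 in COPD and 957.8, 1738 and 740.3 in control libraries. VC library 2 was the highest, and the groups overlapped. The 30-nt fragment, which stops directly before the anticodon, stood at 1181, 2277 and 1197 normalised CPM in VC, 824.2, 665.5 and 1442 in COPD and 1255, 1173 and 766.1 in control libraries. These groups overlapped too.

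The 29-nt Met fragment, which stops 1 base short of the anticodon, was the 1 abundant member whose VC levels lay above those of both other groups. It stood at 590.0, 1073 and 565.0 normalised CPM in VC, 289.9, 305.4 and 357.9 in COPD and 529.9, 382.8 and 398.7 in control libraries. All 3 VC libraries were above all COPD and control libraries, and all COPD libraries were below all control libraries. The 28-nt and 32-nt Met fragments were low, with 8.34 to 34.7 and 18.1 to 53.6 normalised CPM over the 9 libraries.

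By counts, the 31-nt, 30-nt and 29-nt fragments held 40.6 ± 8.15%, 39.2 ± 5.58% and 18.9 ± 2.71% of Met fragments in VC libraries. They held 47.8 ± 3.59%, 37.5 ± 1.25% and 13.2 ± 3.63% in COPD libraries, and 41.5 ± 9.39%, 39.8 ± 5.07% and 17.0 ± 4.79% in control libraries (SD, n = 3 each). The share of Met counts ending before the anticodon was 59.0%, 50.2% and 66.6% in VC, 52.7%, 53.7% and 47.2% in COPD and 64.8%, 46.9% and 60.9% in control libraries. The groups overlapped. The lowest share in each group was that of VC library 2, COPD library 3 and control library 2, the libraries with the fewest listed counts, and the part of depth in this was not tested.

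Ile fragments were dominated by one end. The 32-nt fragment stood at 1542, 3321 and 615.4 normalised CPM in VC, 875.2, 677.0 and 971.4 in COPD and 1001, 969.6 and 645.0 in control libraries. VC libraries 1 and 2 were the 2 highest of the 9, and VC library 3 was the lowest. This fragment held 86.0% to 93.3% of Ile fragment counts in VC, 88.7% to 91.3% in COPD and 85.2% to 86.9% in control libraries.

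The 31-nt Ile fragment stood at 122.6, 124.5 and 54.9 normalised CPM in VC, 40.2, 57.4 and 27.3 in COPD and 126.4, 55.6 and 63.5 in control libraries, with 1 COPD library above the lowest VC and control libraries. The 24-nt fragment ran from 13.5 to 72.4 normalised CPM over the 9 libraries. The 29-nt fragment, which stops directly before the anticodon, ran from 10.6 to 43.4. Ile members that end before the anticodon were a small part of Ile member counts, with 4.15 ± 1.86% in VC, 5.17 ± 1.20% in COPD and 5.97 ± 2.39% in control libraries (SD, n = 3 each). These counts leave out a shorter 15-nt Ile 5′ fragment of type tRF-5a. The Ile share ending before the anticodon was 2.90% to 8.14% over the 9 libraries, and the Met share 46.9% to 66.6%, so the Ile and Met shares did not overlap.

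The 22-nt Gln fragment stood at 156.1, 302.5 and 117.0 normalised CPM in VC, 109.7, 83.9 and 64.8 in COPD and 178.7, 240.1 and 158.8 in control libraries. All COPD libraries were below all VC and all control libraries, while VC and control libraries overlapped. The same tRNA also gave shorter 5′ fragments of 14 and 15 nt, of type tRF-5a. The 22-nt fragment held 14.5%, 31.6% and 45.5% of the Gln 5′ counts in VC, 35.4%, 44.0% and 27.7% in COPD and 31.8%, 35.0% and 35.8% in control libraries.

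The Cys, Pro and Val members were low. The 30-nt Cys fragment stood at 97.8, 118.7 and 113.4 normalised CPM in VC, 77.1, 38.8 and 146.6 in COPD and 78.5, 81.6 and 56.4 in control libraries, so that every VC library was above every control library. The Pro tiRNA stood at 25.7, 68.0 and 10.8 in VC, 15.2, 12.4 and 5.11 in COPD and 23.5, 17.6 and 27.0 in control libraries. All COPD libraries were below all control libraries, and VC overlapped both. The Val tiRNA stood at 13.7, 18.8 and 21.6 in VC, 14.1, 13.2 and 30.7 in COPD and 16.2, 9.27 and 7.06 in control libraries, and COPD library 3 was the highest.

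VC library 2 had the highest normalised CPM of the 9 libraries for 10 of 13 members, and for 15.71% of all 191 tsRNAs tested. The 10 include the Pro tiRNA and the 28-nt Met fragment, which were listed only through VC library 2, so the listing favours this count. COPD library 3 was highest for 2 members, the Cys fragment and the Val tiRNA, and for 30.37% of all tsRNAs. The Val tiRNA was listed only through that library. The 31-nt Ile fragment was highest in control library 1.

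For the COPD model against control, none of the 13 members passed edgeR's test, against 0% of all 191 tsRNAs called. At an unadjusted p under 0.05 there were also 0 members, while 4.71% of all tsRNAs were higher and 1.05% lower. DESeq2 called no member and had 1 at an unadjusted p under 0.05, where 4.19% of all tsRNAs were in either direction. By the fitted change, 10 of 13 members were below 0 and 3 above it, where 57.59% of all 191 tsRNAs were above. The median log2 change of the members was -0.12, beside 0.21 over all 191 tsRNAs. Single libraries moved this median and that over all tsRNAs. Without COPD library 2 the median of the members was 0.08 with 7 of 13 above 0, beside 0.17 over all tsRNAs. Without control library 2 it was -0.05, beside 0.16, and without COPD library 3 it was -0.33, beside 0.08. Without control library 1 it was -0.30, beside 0.25, and without control library 3 it was -0.56, beside -0.11. The COPD and control libraries did not overlap for 3 members, all lower in COPD, where 3.66% of all tsRNAs were, and no member was free of overlap and higher in COPD, where 9.95% were. These were the 29-nt Met fragment, the 22-nt Gln fragment and the Pro tiRNA. With CPM per library total in place of normalised CPM, the 31-nt Ile fragment also did not overlap.

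The 22-nt Gln fragment had the most negative COPD change, at a log2 of -1.16 ± 0.59 (SE), with an edgeR Benjamini-Hochberg adjusted p of 0.758. The Pro tiRNA had a change of -1.03 ± 0.78 (edgeR adjusted p = 0.936) and the 31-nt Ile fragment one of -0.96 ± 0.62 (edgeR adjusted p = 0.867). The Val tiRNA had the largest positive change, 0.81 ± 0.81 (edgeR adjusted p = 0.936). It reached 20 CPM in COPD library 3 alone, so it was listed only through a COPD library. Its change was 0.34 without that library and 0.30 without control library 3. The other 9 changes lay between -0.58 and 0.27 and were smaller than their standard errors.

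For VC against COPD, again 0 of 13 members passed edgeR's test, against 0% of all 191 tsRNAs. Here 3 members were higher in VC at an unadjusted p under 0.05, where 4.71% of all tsRNAs were, and none was lower, where 8.38% were. DESeq2 called no member and had 5 at an unadjusted p under 0.05, where 12.6% of all tsRNAs were in either direction. With 1 library left out, the members at an unadjusted edgeR p under 0.05 numbered 0 to 5. The fitted change was above 0 in 12 of 13 members, where 45.03% of all tsRNAs were. The median was 0.59, beside -0.10 over all tsRNAs. Members are not independent, since the Met fragments are nested, as are the Ile fragments. The Pro tiRNA and the 28-nt Met fragment were also listed only through VC library 2. Normalised CPM did not overlap for 2 members, the 29-nt Met and 22-nt Gln fragments, both higher in VC, where 3.66% of all tsRNAs were. Per library total, the Gln fragment overlapped as well.

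The largest change was that of the Pro tiRNA, a log2 of 1.62 ± 0.79 (SE; edgeR Benjamini-Hochberg adjusted p = 0.377). This fragment reached 20 CPM in VC library 2 alone, so it was listed only through a VC library, which favours a higher VC level. The 31-nt Ile fragment had a change of 1.26 ± 0.62 and the 29-nt Met fragment one of 1.22 ± 0.57, both with an edgeR adjusted p of 0.377. Those of the 22-nt Gln fragment, 1.15 ± 0.59 (edgeR adjusted p = 0.406), and the 32-nt Ile fragment, 1.12 ± 0.61 (edgeR adjusted p = 0.438), followed. The Val tiRNA alone was below 0, at -0.08, a direction that turned under other settings. The remaining 7 changes, the 30-nt Met fragment included, lay above 0 and reached at most 0.67.

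These VC values rest in part on VC library 2. Without it the median change of the 13 members was 0.29, beside -0.13 over all tsRNAs (0.98 beside -0.12 without COPD library 3). Without VC library 2, 8 of 13 were above 0 and none was at an unadjusted edgeR p under 0.05. The 32-nt Ile change was then 0.36, the Pro change 0.71, the 22-nt Gln change 0.66 and the 29-nt Met change 0.87. Without VC library 2, COPD library 3 and control library 2 together, the median was 0.51 with 12 of 13 above 0, beside -0.04 over all tsRNAs. The 29-nt Met change was then 1.05 (edgeR adjusted p = 0.0703).

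For VC against control, in the fit without pairing, edgeR called 0 of 13 members, against 0% of all tsRNAs. There were 0 members at an unadjusted p under 0.05 with edgeR, where 2.09% of all tsRNAs were higher and 1.57% lower. DESeq2 called none and had 0 at an unadjusted p under 0.05, where 4.71% of all tsRNAs were. The change was above 0 in 11 of 13 members, where 56.02% of all tsRNAs were. The median change was 0.54, beside 0.09 over all tsRNAs. Without VC library 2 it was 0.02, beside -0.008 over all tsRNAs, and without control library 3 it was 0.27, beside -0.05. Normalised CPM did not overlap for the 29-nt Met and 30-nt Cys fragments, both higher in VC, where 4.71% of all tsRNAs were. Per library total, no member was free of overlap. A fit of VC and control alone with the replicate numbers as a block also called 0 members. The median there was 0.49 with 11 of 13 above 0, beside 0.09 over all tsRNAs. In that fit the 29-nt Met change was 0.70 (edgeR adjusted p = 0.6055).

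The 32-nt Ile fragment had the largest change in this comparison, a log2 of 1.07 ± 0.61 (SE; edgeR Benjamini-Hochberg adjusted p = 0.986), and 0.31 without VC library 2. The 29-nt Met fragment had a change of 0.76 ± 0.56, the 31-nt Met tiRNA one of 0.65 ± 0.61 and the 30-nt Cys fragment one of 0.61 ± 0.60, each with the same edgeR adjusted p. Without VC library 2 the change of the 31-nt Met tiRNA was -0.14. The 29-nt Ile fragment was lowest, at -0.20, a direction that turned without control library 2 or VC library 3. The other 8 changes lay between -0.01 and 0.74.

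Summing the members of each parent gave no call either, in a fit over 64 parent sums. Gln, Cys, Pro and Val have 1 member each, so their sums repeat the counts already tested singly. In COPD against control, 0 of 6 parent sums passed edgeR's test, against 1.56% of all sums, and 1, that of Gln, was lower at an unadjusted p under 0.05, where 4.69% were, and none higher, where 6.25% were. In VC against COPD, 0 of 6 passed, against 7.81%, and 3 (Gln, Ile and Pro) were higher at an unadjusted p under 0.05, where 10.9% were, and none lower, where 9.38% were. Of these, Pro was listed only through VC library 2, which favours a higher VC level. In VC against control, 0 of 6 passed, against 1.56%, and 1 (Ile) was higher at an unadjusted p under 0.05, where 4.69% were, and none lower, where 3.12% were. The 1.56% in that comparison became 0 sums with the replicate numbers as a block.

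The Ile sum stood at 1714, 3561 and 715.3 normalised CPM in VC, 969.7, 763.5 and 1063 in COPD and 1167, 1116 and 756.7 in control libraries. VC library 3 lay below all the others, and VC libraries 1 and 2 above them. The log2 change was 1.10 ± 0.47 (SE) for VC against COPD (edgeR Benjamini-Hochberg adjusted p = 0.172), 0.98 ± 0.47 for VC against control (adjusted p = 0.551) and -0.12 ± 0.47 for COPD against control (adjusted p = 0.945). Without VC library 3 the VC change over COPD was 1.50 with an adjusted p of 0.0345, and without VC library 2 it was 0.39.

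The Met sum stood at 3025, 6743 and 2663 normalised CPM in VC, 2135, 1842 and 3828 in COPD and 2774, 3333 and 1962 in control libraries. The groups overlapped. Its log2 change was 0.67 ± 0.43 for VC against COPD (edgeR Benjamini-Hochberg adjusted p = 0.451), 0.62 ± 0.43 for VC against control (adjusted p = 0.869) and -0.05 ± 0.43 for COPD against control (adjusted p = 0.945). Without VC library 2 the first of these was 0.13.

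Fragments of other types from the same parents bear on the Gln and Ile values. The other listed Gln fragments, of 14 and 15 nt from the 5′ end and an internal one, summed to 1005, 723.8 and 150.3 normalised CPM in VC, 244.3, 148.3 and 199.4 in COPD and 418.0, 495.9 and 338.1 in control libraries. VC library 3 lay among the COPD libraries and VC libraries 1 and 2 above all the rest. This sum was higher in VC than in COPD, with a log2 change of 1.67 ± 0.54 (SE; edgeR Benjamini-Hochberg adjusted p = 0.0428), and it missed the threshold in 13 of 17 alternatives, whose adjusted p ran over all 17 from 0.00697 to 0.70. Leaving out control library 1 or 3, any COPD library, or VC library 1 or 2 each ended the call, with a change of 1.15 to 1.92. The 15-nt Ile fragment stood at 216.1, 435.7 and 33.3 normalised CPM in VC and 104.2, 55.6 and 57.9 in COPD libraries, with a change of 1.65 ± 0.66 (edgeR adjusted p = 0.331).

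Genes for mitochondrial transcription and for the maturation, modification and cleavage of tRNAs were read in the mRNA libraries of the same 3 groups. The labels do not tie an mRNA library to a tsRNA library. Of a list of 30 such genes, 29 were in the table and 28 passed the filter on low FPKM. limma called 0 of 28 in COPD against control (0.0765% of all 11765 genes), 0 in VC against COPD (0.127%) and 0 in VC against control (0%). At an unadjusted p under 0.05 with limma, 3 of 28 were higher in COPD than in control, where 6.36% of all genes were, and none lower, where 0.229% were. In VC against COPD, 5 were lower, where 10.8% of all genes were, and none higher, where 0.306% were. In VC against control there were 0, where 0.28% of all genes were higher and 0.127% lower. The median log2(FPKM + 1) change of the list was 0.62, -0.76 and -0.14 in these comparisons, beside 0.66, -0.75 and -0.10 over all genes tested. Single libraries moved both. Without control library 1 the median change for COPD against control was 0.31 in the list and 0.30 over all genes. Without VC library 1 that for VC against COPD was -0.39 in the list and -0.31 over all genes. For VC against control the list's median ran from -0.47 to 0.25 with 1 library left out (-0.47 without control library 1 or VC library 3, -0.22 without VC library 2, -0.03 without control library 2, 0.18 without control library 3 and 0.25 without VC library 1). The median over all genes moved with it, from -0.45 without control library 1 to 0.35 without VC library 1.

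Elac2, the tRNA 3′ processing enzyme, stood at 1.81, 3.45 and 4.32 FPKM in COPD and 0.375, 0.919 and 1.86 FPKM in control libraries. Its change was 1.05 ± 0.48 (SE) on the log2(FPKM + 1) scale, with a limma Benjamini-Hochberg adjusted p of 0.514. Polrmt, the mitochondrial RNA polymerase, had a change of 0.82 ± 0.38 with the same adjusted p. Trit1, which modifies a base beside the anticodon, stood at 0.344, 1.75 and 1.52 FPKM in VC and 2.73, 4.98 and 6.21 FPKM in COPD libraries, a change of -1.37 ± 0.58 (limma adjusted p = 0.375). Lrpprc, which stabilises mitochondrial mRNAs, had a change of -1.34 ± 0.58 (limma adjusted p = 0.375).

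In VC against control, the 2 listed genes of smallest p were Trit1, with a change of -0.75 ± 0.58, and Mterf1a, a mitochondrial transcription termination factor, with -0.36 ± 0.45 (limma Benjamini-Hochberg adjusted p = 0.9999 for both). The mitochondrially encoded mRNAs took 92.2%, 70.8% and 55.6% of all FPKM in VC, 30.04%, 28.3% and 23.9% in COPD and 89.2%, 65.1% and 46.9% in control libraries. The COPD libraries were below all others in that share. Control library 1 and VC library 1 were the highest. Scgb1a1, a club cell secretory marker, took 1.32%, 6.19% and 6.27% of all FPKM in VC, 39.2%, 39.2% and 33.0% in COPD and 1.02%, 10.5% and 19.0% in control libraries. The COPD libraries were above all others in Scgb1a1. In both comparisons with COPD, all 28 listed genes changed against the mitochondrial share and with the Scgb1a1 share. The medians over all genes moved the same way, at 0.66 and -0.75, and the share of all genes that did so was not counted. The part of each share alone was not tested. With each library's FPKM rescaled so that genes outside Scgb1a1 and the mitochondrial genome had the same sum, the median changes over all genes were 0.14, -0.16 and -0.01, and those of the list 0.16, -0.26 and -0.06. After this rescaling, 20 of the 28 listed genes were above 0 in COPD against control and 5 in VC against COPD.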

How the data were processed

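tsRNA and mRNA were measured in 9 lung libraries each, with total RNA from Trizol (1.5 µg input) and, for tsRNA, a pretreatment that removes interfering modifications, per the labels' protocols. FastQC, cutadapt, StringTie and Bowtie are named with mm10 in the submitters' processing notes; not given in the sources used here are their roles and versions, and whether reads matching several tRNAs were split. The authors deposited raw counts per tsRNA and the same tsRNAs in CPM, per the file headers. The authors deposited mRNA levels as FPKM, per the file headers, so the mRNA depth is unknown. Counts divided by CPM gave each library's total, from 893028 to 2679933 reads, of which the listed tsRNAs were 42.6% to 70.58%. The lowest maximum over libraries of a listed tsRNA was 20.1 CPM, from which the listing minimum is inferred. The members and the gene list were chosen with earlier results of these data known.

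Counts were tested with edgeR 4.0.16 in R 4.3.3 (quasi-likelihood, filterByExpr, TMM factors, library size from listed tsRNAs, 9 libraries in 1 fit, 191 of 193 tsRNAs kept, common biological coefficient of variation 0.5448). Summed counts of 5′ fragments, and of other types, per parent tRNA were fitted with the same factors. Log2(FPKM + 1) of genes with at least 1 FPKM in 3 libraries was fitted with limma 3.58.1 and a trend. Benjamini-Hochberg adjustment ran over all features of a fit, with a threshold of 0.05. The edgeR fit was tested on simulated data. Values per library are given for the most abundant fragment of each parent and for the largest and most negative changes, other members by range, with the 29-nt and 30-nt Met and 31-nt Ile fragments added after their values were seen. Listed genes are the 2 of smallest p per comparison. Tables were made with Python 3.11.15, pandas 2.3.3 and numpy 2.4.6. Sequences of fragments and tRNAs are from the authors' table and gene positions from RefSeq.

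Replicate numbers are shared by the labels of all groups. Deviations of same-numbered VC and control libraries from their group means correlated at 0.71, 0.74 and 0.20 over 191 tsRNAs, each over 0.1. These numbers were therefore tried as pairs of VC and control libraries, from the data and not the labels. Library 2 stood apart in both of these groups, while in COPD it was library 3. Whether that alone gives these correlations was not tested, so the pairing is not established. VC library 3 correlated more with control library 1 than with control library 3, so that pair is doubtful. COPD and control gave 0.47, -0.60 and -0.52, and VC and COPD 0.55, -0.37 and -0.08, and were not taken as paired. In the mRNA libraries, VC and control gave 0.63, 0.19 and 0.50 over 11765 genes. COPD and control gave -0.02, 0.18 and -0.17, and VC and COPD 0.05, -0.06 and -0.10. Pairing of VC and control is not established there either. Control library 1 and VC library 1 had the highest mitochondrial shares of FPKM, and the part of this in the correlations was not tested. The mRNA block was fitted over all 3 groups, COPD included, and no mRNA fit of VC and control alone was run. For VC against control it gave no call. There 1 listed gene was lower at an unadjusted limma p under 0.05, beside 83 of all 11765 genes. Alternatives were RLE factors, library totals without TMM, no filter, DESeq2 1.42.0, a replicate block, 2 groups only and each library left out. For FPKM they were a pseudocount of 0.1, no filter and rescaling. Those added after seeing the data were the removal of 3 libraries together, library size from nuclear tsRNAs, a paired fit of VC and control alone, and, for mRNA, the removal of control 1 and VC 1 together.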

Additional observations from a re-analysis of the deposited data

How the results depend on the processing

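No member was called in any comparison under any alternative run, the replicate block included, and no gene of the mRNA list was. Among 433 alternatives of the single and summed changes, 405 kept direction and side of the threshold, 14 reversed, 1 passed newly and 13 lost the call, all 13 for the other Gln fragments in VC against COPD. The cause of each such move was not tested. The 405 say little on stability, since few changes were calls and many alternatives drop a library outside the comparison. They also take no account of size. The 32-nt Ile change in VC against COPD counted as kept at 0.36 without VC 2, from 1.12.

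The change that passed newly was the Ile sum in VC against COPD without VC 3, so calls among member sums ran from 0 to 1 with a library left out. Reversals were small. The Val tiRNA in VC against COPD was 0.04 with RLE factors and 0.04 with DESeq2, 0.46 without control 2, COPD 3 and VC 2 together, and -0.29 to 0.40 with a library left out. With a library left out, the 31-nt Met tiRNA in VC against control ran from -0.14 to 1.08, the 29-nt Ile fragment from -0.84 to 0.13, and in COPD against control the Ile sum from -0.63 to 0.0006 and the Met sum from -0.54 to 0.14. The Met sum was 0.0008 there with the replicate block.

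Calls among all tsRNAs moved in number. The members are 13 of the 191 tsRNAs tested, so their lack of calls does not show that they are steadier. In COPD against control they were 0 in edgeR, 2 with DESeq2, 1 with the replicate block and 0 to 3 with a library left out. In VC against COPD they were 0 in edgeR, 5 with RLE factors, 2 with library totals, 1 with DESeq2, 3 with the replicate block, 3 with 2 groups only and 0 to 6 with a library left out. In VC against control they were 0 in edgeR, 1 with DESeq2, 3 without control 2, COPD 3 and VC 2 together, and 0 to 1 with a library left out. Among all parent sums in COPD against control, 1 call became 2 with DESeq2, 0 with RLE factors, library totals, the 3 libraries removed or nuclear library size, and 0 to 2 with a library left out. In VC against COPD, 5 became 3 with DESeq2, 1 with the replicate block, 0 with RLE factors, library totals, 2 groups only, the 3 libraries removed or nuclear library size, and 0 to 5 with a library left out. In VC against control, 1 became 0 with RLE factors, library totals, nuclear library size, the replicate block or the paired fit of VC and control alone, and 0 to 1 with a library left out. The block changed no call of a member. In the mRNA list it moved the genes at an unadjusted limma p under 0.05 to 11 higher in COPD than in control, beside 3935 of all 11765 genes, and to 19 lower in VC than in COPD, beside 5461.

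At 3 libraries a group, tsRNAs changed 2-fold were rarely recovered in data simulated for COPD against control with a common spread. In that comparison, members' changes of about this size could not be told from no change at this depth and spread. The VC comparisons were not simulated, and no VC change of a member was called.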
